A study of Mus musculus with 16 samples.

Results

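The early-full regions are stretches of the mouse genome with coverage in libraries of RNA crosslinked to Dazl. In the strongest condition of the series, their deposited coverage after 30 s of laser light equalled that after 680 s. They were chosen on measured values: a region had to reach a coverage of at least 10 after 680 s with 2.6 mW of laser power and 4.2x Dazl, and exactly the same coverage at 30 s in that condition. The 3 libraries of 2.6 mW and 4.2x Dazl are called the chosen series below. Of 8338 regions in the series, 7303 had a coverage of at least 10, and 3318 of these (45.4%) were early-full. The other 3985 regions of at least 10 are the comparison used throughout, and 1035 regions lay under 10.

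The libraries were made by KIN-CLIP, in which a femtosecond pulsed ultraviolet laser links a protein to the RNA it touches for a set time and the linked RNA is then sequenced. All samples come from a single monoclonal line derived from GC-1 spg, a mouse cell line of spermatogonial origin, in which doxycycline induces Dazl, so every group carries the inducible gene and, per the labels, was induced. The 12 libraries analysed here cross 30, 180 and 680 s with 1 or 2.6 mW of laser power and a relative Dazl level of 1x or 4.2x, with 1 library for each condition and no replicates. The 4 samples of 0 s are not analysed here, which leaves coverage without crosslinking unmeasured.

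Dazl belongs to the DAZ family of RNA-binding proteins of the germ line. Its RNA recognition motif binds short sequences built around GUU, many of them in 3′ untranslated regions, and it is known to act on the translation and stability of the mRNAs it holds. Crosslinks accumulate for as long as the light is on, so the coverage of a region at a short time depends on how often Dazl is there and on how easily the contact is crosslinked.

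Few germ cell genes were represented. Of 10 germ cell marker genes 1 had a region, at the lowest coverage of the strongest library (3), and of a longer list of 31 germ cell genes 4 had a region, none of at least 10. No early-full region lay in a gene of these lists or of the Sertoli, Leydig, endothelial and macrophage marker lists. The germ line gene Boll, of the DAZ family, is outside the lists and was noticed after its values were seen. It has an early-full region at chr1:55247526-55247542, with 26, 25 and 26 at 30, 180 and 680 s in the chosen series. That region had 26, 19 and 19 in the 2.6 mW, 1x series. It was well below its 680 s coverage at 30 s in the other series, with 6, 5 and 13 at 1 mW, 4.2x and 1, 1 and 4 at 1 mW, 1x. Sertoli markers had 2 regions, with 31 and 35 at 680 s, 2.6 mW and 4.2x Dazl, and the 4 endothelial markers had 1 region, with 12, while a longer list of 7 endothelial genes had 2 regions of at least 10. Coverage pools all cells, so more RNA per cell, more cells with that RNA and more binding to it cannot be told apart. Library totals ran from 11271 (180 s, 1 mW, 1x) to 252932 (680 s, 2.6 mW, 4.2x).

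Sequences are shown first because many of the few regions with readable sequence are centred on 1 triplet or its complement. Of the early-full regions 3028 (91.3%) were exactly 17 nt long, against 82.2% of the other regions of at least 10, and the rest were 16 to 99 nt long. RefSeq promoter windows of GRCm38.p6, the assembly called mm10, run from 250 nt before to 50 nt after a gene start, and 33 early-full regions of 17 nt lay wholly inside one. The triplet searched was GTT, the DNA form of GUU, or its complement AAC, on the strand of the window. In 16 of the 33 regions the triplet sat at positions 8 to 10, the exact centre. The next 6 regions carry it there on the strand of their gene, and capitals mark it.
Stk11: gtccaccGTTgcgacgt
Vhl: ccttcaaGTTgcccgga
Fbxw7: tccaggaGTTctcggcg
Acap3: cggctatGTTtcctgtc
Luc7l2: tttatttGTTtttgtga
Smarcal1: aaatgtaGTTcgacggt
They lie at chr10:80115770-80115786, chr6:113624023-113624039, chr3:84815365-84815381, chr4:155891861-155891877, chr6:38555504-38555520 and chr1:72583247-72583263, in that order. Stk11 is a tumour suppressor kinase upstream of AMPK. Vhl and Fbxw7 are substrate receptors of ubiquitin ligases, Acap3 is an Arf GTPase-activating protein, Luc7l2 is a splicing factor and Smarcal1 is a DNA translocase of stalled replication forks.

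The centre held the complement in other early-full regions. Dad1, a subunit of the oligosaccharyltransferase, has its region at chr14:54253895-54253911, and Wsb1, a ubiquitin ligase receptor, at chr11:79243236-79243252. Both are written here on the strand of the gene, so the GUU of the central triplet would be on the opposite strand. The Wsb1 region also holds GTT on the gene's own strand, at positions 5 to 7.
Dad1: gcccgctAACgcgcacg
Wsb1: taatgttAACgtaattg
Over all 113 regions of 17 nt with promoter sequence, 35 had GTT at the centre and 18 had AAC. Where the strand of a single gene was known, the central GUU lay on the gene's strand in 25 regions and on the other in 10. For early-full regions the counts were 8 and 3. The deposited files carry no strand, so it was not tested whether the latter regions come from antisense RNA.

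Not every early-full region carries the triplet at its centre. The next examples are shown because their time courses are among those described below or because they lie at a gene start. One is the region 34 nt before the start of Zwint (chr10:72654812-72654828). The region of the splicing coactivator Rbm39 (chr2:156179600-156179616) holds the complement at positions 9 to 11, just off the exact centre. The region of Triap1 (chr5:115341232-115341248) begins 1 nt after the annotated start.
Zwint upstream: atgaaaagaggtgacgt
Triap1: tcagaatgcgtcgccgt
Rbm39: gcccgtggaacgccgcc

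**Figure D1:**
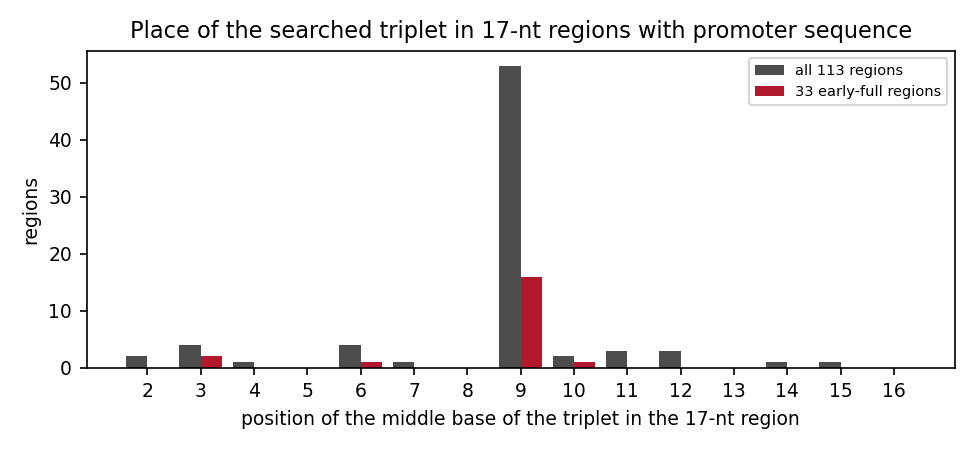
Number of 17-nt regions, of 113 with promoter sequence (grey) and of the 33 early-full ones among them (red), that hold the searched triplet or its complement, by the position of its middle base. At the centre there are 53 regions and 16 early-full regions, and no other place has more than 4.

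The central triplet was as common outside the early-full set. It stood at the centre in 48.5% of the early-full regions (16 of 33), 48.3% of the other regions of at least 10 (29 of 60) and 46.9% of all 113. In all RefSeq promoter windows, 2.40% of 3-base steps are GTT or AAC. Anywhere in the region it was found in 18 of the 33, and 31.0% of all 17-base promoter windows hold it. These windows lie at gene starts, where few regions are, so the shares describe 113 regions and not the early-full set as a whole.

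Regions in miRNA hairpins gave the only other sequences. Of 6 regions of 17 nt inside a RefSeq hairpin, 4 were early-full, and all 6 had GUU or AAC at the centre. They are written on the strand of the hairpin, in RNA letters.
Mir21a: ucauggcAACagcaguc
Mir3064: ugugcaaAACuccguac
Mir27a: aagucguGUUcacagug
Mir5114: ucuugcaGUUccuguuc
The Mir21a region (chr11:86584093-86584109) lies in Vmp1, a membrane protein of autophagy, and shares 11 nt with mature mmu-miR-21a-3p. The Mir3064 region (chr11:106782727-106782743) lies in the RNA helicase gene Ddx5 and shares 8 nt with mmu-miR-3064-5p, and the Mir27a region (chr8:84208719-84208735) shares 9 nt with mmu-miR-27a-3p. The Mir5114 region (chr19:44303209-44303225) lies in the desaturase gene Scd2 and shares no base with the mature miRNA.

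Between the equal ends of the chosen series, coverage at 180 s ranged from equal to somewhat lower. At 2.6 mW and 4.2x Dazl, coverage of the early-full regions had a median of 27 (quartiles 22 and 34, range 10 to 274) at 30 s and at 680 s, by the rule. In the 180 s library, which the rule did not use, 2549 of the 3318 were lower than at 680 s, 769 were equal and 0 were higher. The median at 180 s was 95% of the 680 s value, the lowest was 75%, and 1218 regions stood below 90%. No region of the whole table was above its 680 s value at 180 s in this series, so early-full regions, with equal ends, had room only to tie or to be lower there, and the direction of the dip is no separate result.

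The limits of the rule differ in sharpness. Of regions with a coverage of at least 10, 3318 had no difference between 680 and 30 s, while 67 differed by 1, 69 by 2 and 76 by 3. Just inside the minimum, 17 of 39 regions with a coverage of 10 were tied, and just outside it 10 of 30 regions with 9 were. Over all 8338 regions 3793 were tied and 0 were higher at 30 s than at 680 s, so values of this series may have been linked before deposit. Equality here is the rule's own measure and supports nothing by itself.

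The series that the rule did not use were less full at 30 s. In the 1 mW, 4.2x series the early-full regions had medians of 10, 7 and 16 after 30, 180 and 680 s, against 3, 3 and 18 in the other regions of at least 10. In the 2.6 mW, 1x series the medians were 13, 13 and 22, against 5, 4 and 25. In the 1 mW, 1x series, the weakest, they were 1, 1 and 8, against 1, 1 and 9. The early-full regions thus stood higher than the others at 30 and 180 s in the first 2 of these series and slightly lower at 680 s in each.

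**Figure D2:**
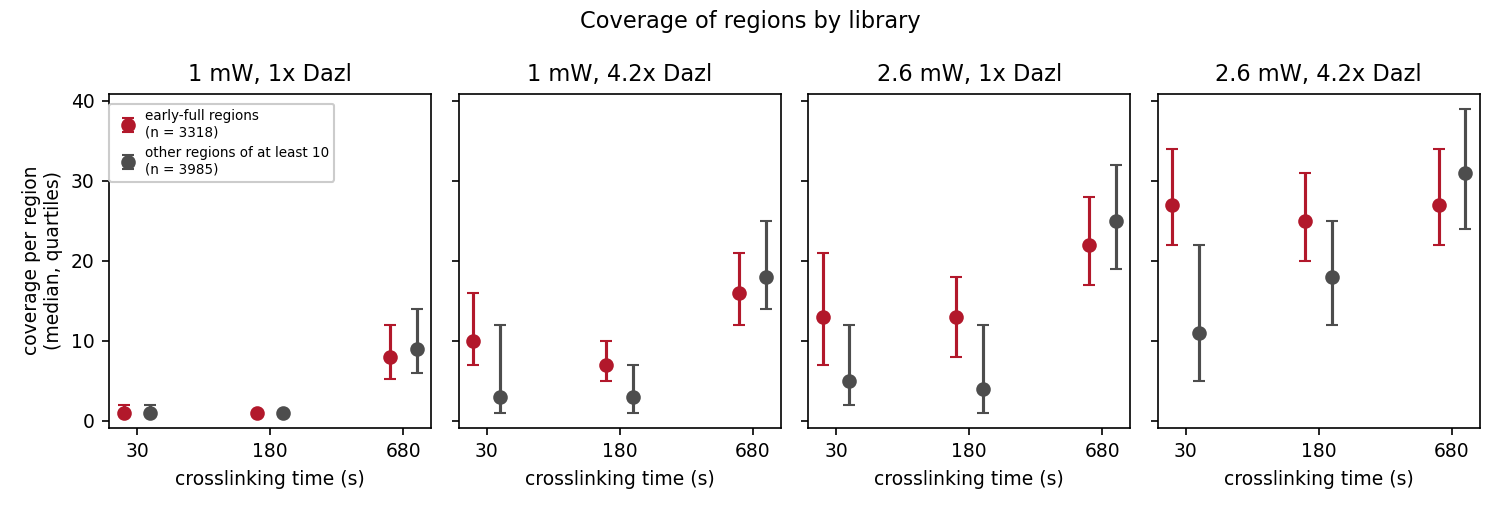
Coverage per region (median and quartiles over regions) in each of the 12 libraries, by crosslinking time, for the 3318 early-full regions (red) and the 3985 other regions of at least 10 (grey). At 680 s the red medians of 8, 16, 22 and 27 lie just under the grey medians of 9, 18, 25 and 31, while at 30 s in the 1 mW, 4.2x series the red median is 10 and the grey 3.

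Expressed as a share of the region's own 680 s coverage, the early-full regions had a median of 65% at 30 s in the 1 mW, 4.2x series (quartiles 45.5% and 87.5%). The other regions of at least 10 had 16.7% (7.14% and 55.6%) and all regions 50%. In the 2.6 mW, 1x series the median was 60% (36% and 88%), against 20.5% (8.70% and 43.8%) in the others and 43.8% in all regions. The quartile ranges of early-full and other regions overlap in the first series and also, by a few points, in the second. In the 1 mW, 1x series the medians were 16.7% and 14.3%, with 16.7% over all regions.

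Most of that last series stood at its lowest listed coverage. At 30 s, 2401 early-full regions (72.4%) and 71.0% of the others were at 1 there, so their share of the 680 s value mainly reflects that minimum. Among regions above it the medians were 33.3% for 917 early-full regions and 19% for the others. In the 30 s libraries of 1 mW, 4.2x and 2.6 mW, 1x, only 124 (3.74%) and 61 (1.84%) of the early-full regions were at the lowest value, against 38.5% and 17.4% of the others. Leaving those out, the medians were 66.7% against 47.4% and 61.5% against 27.8%.

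**Figure D3:**
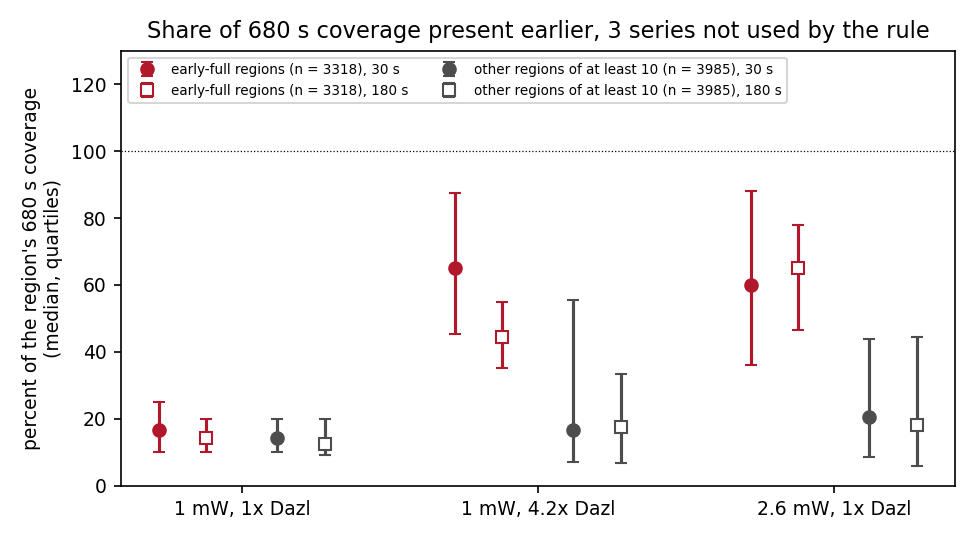
Coverage at 30 s (filled circles) and 180 s (open squares) as a percentage of the same region's 680 s coverage, median and quartiles over regions, in the 3 series not used by the rule. The early-full regions (red) have 30 s medians of 16.7%, 65% and 60%, and the other regions of at least 10 (grey) 14.3%, 16.7% and 20.5%.

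In each series not used by the rule, a minority of early-full regions was full at 30 s. That minority was a larger share than in the other regions of at least 10. In the 1 mW, 4.2x series 554 of 3318 (16.7%) had a 30 s coverage at least as high as at 680 s. The share was 5.65% in the others and 12.8% over all regions. In the 2.6 mW, 1x series the count was 611 (18.4%), against 1.66% of the others and 11.8% of all regions. For the 1 mW, 1x series it was 80 (2.41%), against 1.18% of the others but 10.3% of all regions. A 30 s coverage of at least 90% of the 680 s value was reached in none of the 3 series by 1942 early-full regions (58.5%). It was reached in 1 series by 1148 (34.6%), in 2 by 216 (6.51%) and in all 3 by 12 (0.362%). Of the other regions of at least 10, 418 (10.5%) reached it in 1 series, 21 (0.527%) in 2 and 0 in all 3. Over all regions the shares for none, 1, 2 and 3 series were 68.0%, 24.5%, 6.33% and 1.20%. Of the 100 regions that reached it in all 3, 88 lay under 10.

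How full a region was in one series said little about another within the early-full set. The correlation over the 3318 regions of the log2 ratio of 30 s to 680 s coverage between the 1 mW, 4.2x and 2.6 mW, 1x series was 0.07 (Pearson) and 0.04 (Spearman). Over the other 3985 regions it was 0.45 and 0.44. These are descriptions across regions that share the same libraries and whole-number values, and choosing tied regions narrows the range.

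In each series not used by the rule, the 180 s library total lay below the 30 s total. In the 1 mW, 4.2x series, 2411 early-full regions (72.7%) were lower at 180 s than at 30 s, 407 were equal and 500 were higher, and 45.7% of the other regions of at least 10 were lower. In the 2.6 mW, 1x series 1651 (49.8%) were lower and 1326 higher, against 48.9% lower in the others. There the early-full median share of the 680 s coverage was 60% at 30 s and 65% at 180 s. In the 1 mW, 1x series 672 (20.3%) were lower, 2646 were equal and 0 higher, against 15.6% lower in the others and 15.7% over all regions. No region of the whole table was higher at 180 s than at 30 s there, so that 0 is not particular to the early-full regions. The library totals moved the same way, from 74552 to 48334, from 92228 to 86071 and from 14910 to 11271, and their part in these counts was not tested.

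The share at 30 s was compared between early-full regions of low and high final coverage. When regions were ordered by their 680 s coverage at 2.6 mW and 4.2x Dazl, the early-full median share at 30 s in the 1 mW, 4.2x series lay between 62.2% and 66.7% in all 5 ranges of coverage from 10 to 868. It lay between 55.4% and 63.8% in the 2.6 mW, 1x series, and in the 1 mW, 1x series went from 25% in the range of 10 to 19 to 12.5% in that of 30 to 39 and 13.3% above. The other regions, in the 1 mW, 4.2x series, ran from 9.52% in the range of 30 to 39 to 45.4% at 60 and above. Early-full regions made up 58.7% of the 946 regions with a coverage of 10 to 19 and 24.8% of the 553 regions at 60 and above. A tie of whole numbers is easier at low coverage, and its part in this trend was not tested.

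The ratios between 680 s libraries did not set the early-full regions apart, although their levels at 680 s were lower than those of the others. Relative to the same region at 2.6 mW and 4.2x Dazl, their median coverage at 680 s was 81.1% in the 2.6 mW, 1x series, 60.7% in the 1 mW, 4.2x series and 31.6% in the 1 mW, 1x series. The corresponding medians in the other regions of at least 10 were 80.6%, 60.6% and 31.4%. Early-full regions accordingly held between 39.3% and 39.6% of the coverage of each 680 s library. At 30 s they held 41.0% in the 1 mW, 1x series, 53.8% in the 1 mW, 4.2x series, 55.9% in the 2.6 mW, 1x series and, by the rule, 57.4% with both raised.

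More Dazl and more light went with larger ratios of early coverage in these regions than in the others. At 1 mW, the mean coverage of an early-full region at 4.2x Dazl was 6.55 times that at 1x after 30 s (12.1 against 1.84), 6.23 times after 180 s and 1.94 times after 680 s. In the other regions of at least 10 the ratios were 4.29, 3.49 and 1.94. At 1x Dazl, 2.6 mW gave 8.43 times the mean coverage of 1 mW after 30 s (15.5 against 1.84), 11.4 times after 180 s and 2.59 times after 680 s, against 5.08, 6.10 and 2.58. The gap between the 2 kinds of region was thus in the 30 and 180 s libraries, and at 680 s the ratios were nearly equal. Each ratio compares single libraries, and the 1x values at 1 mW lie near the lowest listed value.

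The 9 libraries that the rule did not use were then tested over all 8338 regions with limma, on log2(coverage + 3), with terms for time and for series. On coverage as deposited the median change from 30 to 680 s was 0.84 (log2) in the early-full regions, 1.55 in the other regions of at least 10 and 1.06 over all regions. At a Benjamini-Hochberg adjusted p under 0.05, 1990 early-full regions (60%) rose, against 73.7% of all regions and 92.5% of the other regions of at least 10. None fell: 0 early-full regions and 0% of all regions were called lower, also at an unadjusted p under 0.05. This fell to 1002 and 817 when the 30 or the 680 s library of the 1 mW, 1x series was left out, and to 1324 when the 30 s library of the 2.6 mW, 1x series was. A slope on log2 time called 276 and leaving out all 3 libraries of 1 mW and 1x Dazl 375.

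Scaling every library to the same total asks instead which regions departed from the change of the whole library, and it moved the median of all regions from 1.06 to 0.05. On scaled coverage the early-full regions had a median change of -0.14 and the other regions of at least 10 one of 0.55. Only 31 early-full regions (0.934%) rose, against 13.7% of all regions and 27.9% of the others. A further 110 (3.32%) fell, against 1.58% of all regions and 0.527% of the others. With libraries scaled by the median of ratios the split was 20 and 160. The total of 141 became 45 or 280 when the 30 or the 680 s library of the 1 mW, 1x series was left out, 76 when the 180 s library of the 1 mW, 4.2x series was, 316 when all 3 libraries of the 1 mW, 1x series were, and 55 when only regions above the lowest value in at least 5 libraries were tested.

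**Figure D4:**
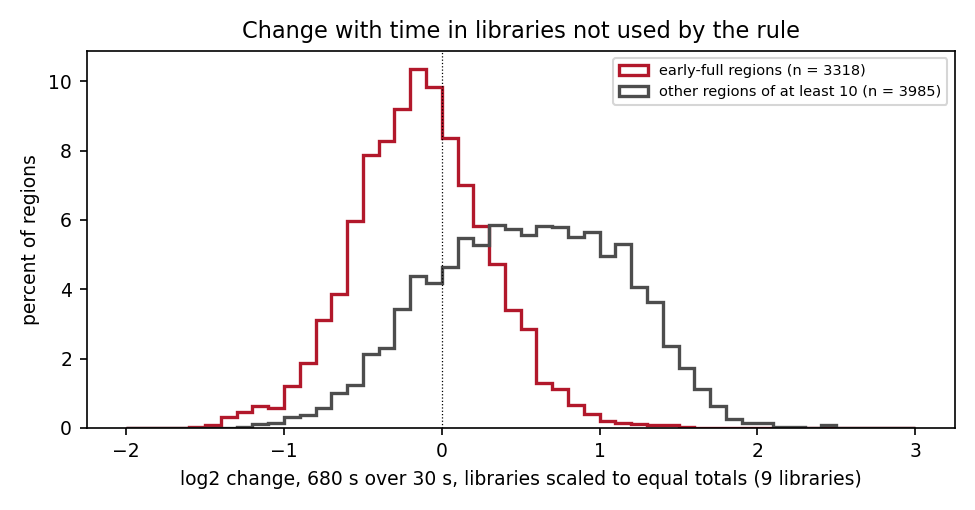
Distribution of the log2 change from 30 to 680 s, with libraries scaled to equal totals, over the 3318 early-full regions (red) and the 3985 other regions of at least 10 (grey), as percent of regions in steps of log2 change. The values come from the limma fit to the 9 libraries not used by the rule, and the medians are -0.14 and 0.55.

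Dazl level and laser power gave larger changes in the early-full regions than in the rest of the table. As deposited, 4.2x over 1x Dazl at 1 mW had a median change of 1.20 in the early-full regions and 0.84 over all regions, and 2786 early-full regions (84.0%) rose, against 55.9% of all regions. Leaving out the 30 s library of the 1 mW, 1x series gave 1834. For 2.6 over 1 mW at 1x Dazl the medians were 1.63 and 1.17, and 3083 early-full regions (92.9%) rose, against 73% of all regions. In the other regions of at least 10 the medians were 0.60 and 0.94, with 45.1% and 68.3% called higher.

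On scaled coverage the medians of the early-full regions were 0.30 for Dazl level and 0.32 for laser power, with -0.15 and -0.18 over all regions. For Dazl level 165 early-full regions rose and 49 fell (4.97% and 1.48%), against 2.75% and 2.42% of all regions. For laser power 422 rose and 131 fell (12.7% and 3.95%), against 6.27% and 15.3% of all regions, or 587 and 79 with scaling by the median of ratios. These counts rested on single libraries. The 214 calls for Dazl level were 5, 34 and 1114 without the 30, 180 and 680 s libraries of 1 mW and 1x, 7, 19 and 654 without those of 1 mW and 4.2x, and 107 and 468 without the 180 and 680 s libraries of 2.6 mW and 1x. The 553 calls for laser power were 13, 36 and 1278 without the libraries of 1 mW and 1x, 10, 23 and 1194 without those of 2.6 mW and 1x, and 338 and 129 without the 30 and 180 s libraries of 1 mW and 4.2x. Restricting the test to regions above the lowest value in at least 5 libraries left 42 and 103, and a pseudocount of 10 left 224 for laser power.

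The early-full regions that rose most with time relative to the whole library were mostly at or near the lowest coverage at 30 s outside the chosen series. One 17-nt region of Col1a1, a chain of type I collagen, at chr11:94950649-94950665, had coverages of 1, 1 and 13 at 30, 180 and 680 s in the 1 mW, 1x series, 1, 2 and 22 in the 1 mW, 4.2x series, and 2, 1 and 35 in the 2.6 mW, 1x series. With both raised it had 37, 29 and 37. Its values at 30 s in the first 3 series did not overlap those at 680 s, and the scaled change was 1.56 ± 0.35 (SE, log2, limma adjusted p = 0.000791). The region 34 nt before Zwint, a kinetochore gene, had 1, 1 and 20, then 6, 5 and 31, then 2, 2 and 35, and in the chosen series 43, 34 and 43, with a scaled change of 1.46 ± 0.32. Ubr7, a ubiquitin ligase of the UBR box family, had 2, 2 and 27 in the 1 mW, 4.2x series and 2, 1 and 28 in the 2.6 mW, 1x series, but 42, 40 and 42 in the chosen series, with a scaled change of 1.41 ± 0.35.

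The other 5 regions named by this rule behaved alike. A region in both Rasl12 and Slc51b changed by 1.40, one of Vps29, a retromer subunit, by 1.38, one of Celf1, a regulator of splicing and mRNA decay, by 1.34, one of Cbx5, the heterochromatin protein HP1 alpha, by 1.31, and one of Atp6ap2, an accessory subunit of the proton pump, by 1.28. Vps29 was intermediate, with 11, 28 and 41 in the 2.6 mW, 1x series, and its call was lost without the 30 s or the 680 s library of 1 mW and 4.2x (adjusted p = 0.0542 and 0.0724, limma). So were those of Atp6ap2 without either of these (0.131 and 0.085) or the 30 s, 2.6 mW, 1x library (0.0693), of Cbx5 without the 680 s, 1 mW, 4.2x library (0.0679) and of Rasl12 and Slc51b without the 680 s, 2.6 mW, 1x library (0.0544).

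At the other end stood early-full regions whose 30 s coverage was at or near the final level in each series. Slc38a1, a glutamine transporter, has such a region at chr15:96576494-96576510, with 12, 3 and 10 at 30, 180 and 680 s in the 1 mW, 1x series, 15, 8 and 13 in the 1 mW, 4.2x series, 26, 16 and 22 in the 2.6 mW, 1x series, and 23, 23 and 23 in the chosen series. It was higher at 30 s than at 680 s in all 3 series not used by the rule, and its scaled change was -1.51 ± 0.33 (SE, log2, limma adjusted p = 0.000624). On coverage as deposited the change was -0.20 (adjusted p = 0.623), so the fall was relative to libraries whose totals rose. A region of Cbx5 at chr15:103195641-103195657 had 9, 3 and 8, then 27, 15 and 23, then 30, 19 and 29, then 30, 30 and 30, and a scaled change of -1.46 ± 0.31. Cbx5 therefore held early-full regions at both extremes.

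Another 6 regions fell on scaled coverage. They lie in Sap130, a subunit of the Sin3 deacetylase complex (-1.46), Mtmr6, a phosphoinositide phosphatase (-1.44), Blcap (-1.38), Arhgap29 (-1.38), Ccdc157 (-1.36) and Ube2z, a ubiquitin-conjugating enzyme (-1.35). Ube2z at chr11:96049565-96049581 had 28, 15 and 23 in the 1 mW, 4.2x series and 26, 17 and 21 in the 2.6 mW, 1x series. None of the 8 was called on coverage as deposited. Without the 30 s, 1 mW, 1x library the limma adjusted p was 0.0539 for Slc38a1, 0.0662 for Sap130, 0.0532 for Mtmr6, 0.129 for Blcap and 0.0617 for Ccdc157, and Blcap was at 0.0835 without all 3 libraries of 1 mW and 1x.

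The 599 early-full regions above the lowest value in all 9 libraries allow a ratio in each series. The highest mean ratio of 30 s to 680 s coverage over the 3 series was 126%, for a region of Slit2, an axon guidance ligand, which had 11, 3 and 5 in the 1 mW, 1x series, 4, 3 and 7 in the 1 mW, 4.2x series, and 10, 9 and 10 in the 2.6 mW, 1x series. Mtmr6 and Slc38a1 followed at 118%, Sap130 at 117%, Ccdc157 at 116% and Hnrnpu, a nuclear matrix and splicing protein, at 115%. The lowest was 20.8%, for a region in both Syn3 and Timp3 with 3, 2 and 23, then 18, 14 and 49, then 7, 5 and 56, and in the chosen series 82, 74 and 82. Fam114a2 stood at 23.2%, Slc7a1, a cationic amino acid transporter, at 24.3%, Apc, a scaffold of beta-catenin destruction, at 24.8%, Rbm39 at 25.2% and Anapc2, a subunit of the anaphase-promoting complex, at 25.8%. The Rbm39 region shown above had 3, 2 and 7, then 4, 5 and 17, then 2, 4 and 22, and 29, 23 and 29 in the chosen series.

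The regions with sequence cover the same span of behaviour. Stk11 had 2, 1 and 21 at 30, 180 and 680 s in the 1 mW, 1x series, 15, 22 and 31 in the 1 mW, 4.2x series, 55, 41 and 48 in the 2.6 mW, 1x series, and 53, 52 and 53 in the chosen series. Dad1 had 1, 1 and 14, then 34, 21 and 29, then 61, 39 and 37, then 40, 40 and 40. Smarcal1, with the same central triplet as Stk11, had 1, 1 and 7, then 18, 9 and 15, then 2, 2 and 25, then 31, 26 and 31. The Vmp1 region in the Mir21a hairpin had 1, 1 and 5, then 2, 1 and 18, then 31, 30 and 37, then 40, 32 and 40. Stk11, Dad1 and Vmp1 were near or above their 680 s level at 30 s in the 2.6 mW, 1x series, and Smarcal1 only in the 1 mW, 4.2x series.

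The highest early-full region was in Jund, which pairs with Fos proteins in AP-1. It spans 99 nt up to the annotated gene end (chr8:70700519-70700617), and its coverage was 9, 8 and 98 at 30, 180 and 680 s in the 1 mW, 1x series, 98, 62 and 168 in the 1 mW, 4.2x series, 127, 132 and 221 in the 2.6 mW, 1x series, and 274, 242 and 274 in the chosen series. Next came a 65-nt region in the overlap of Hspa5, the BiP chaperone, and Rabepk (chr2:34776224-34776288), with 244 at 680 s. Without strand it cannot be given to either gene.

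The next regions completed the highest 8. Rpn2, a subunit of the oligosaccharyltransferase, had 139, 111 and 155 at 30, 180 and 680 s in the 2.6 mW, 1x series and 43, 23 and 104 in the 1 mW, 4.2x series, and reached 181. Epha2, an ephrin receptor, had 143, 110 and 152, then 60, 45 and 102 in the same 2 series, and reached 174. Both stood closer to their 680 s level with more light than with more Dazl. The membrane protein Tm9sf3 reached 133, the histone chaperone Set 131, the matrix glycoprotein Sparc 130 and the metalloproteinase inhibitor Timp2 123. Timp2 was the reverse of Rpn2, with 67, 32 and 86 in the 1 mW, 4.2x series and 53, 65 and 114 in the 2.6 mW, 1x series. Jund reached the annotated gene end, and Epha2 lay 90 nt from it, Timp2 229 nt, Rpn2 426 nt and Sparc 481 nt. Set lay 800 nt and Tm9sf3 3275 nt from it, and the region of Hspa5 and Rabepk had no strand. Over the early-full regions with a strand the median distance was 1423 nt and the lower quartile 486 nt.

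Early-full regions were spread over 1645 of the 2655 genes with a region of at least 10, and 939 of these genes held exactly 1. Of the 3318 regions, 3080 lay in 1 gene, 77 in 1 protein-coding gene among several, 116 in several genes and 45 in none. Protein-coding genes held 3098 and long noncoding RNA genes 55. The nuclear RNA Neat1, the scaffold of paraspeckles, had most, with 25 of its 62 regions, followed by Col1a1 with 23 of 43, Timp2 with 15 of 29 and the nuclear speckle RNA Malat1 with 14 of 38. The heparan sulfate proteoglycan Sdc4 had 13 of 22, the matrix glycoprotein Thbs1 13 of 28, the membrane protein Dcbld2 12 of 22, the giant scaffold Ahnak 12 of 23, the chaperone Canx 11 of 22 and the adhesion molecule Ncam1 11 of 18. The shares of these 10 genes ran from 36.8% (Malat1) to 61.1% (Ncam1), around the 45.4% of all regions of at least 10.

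Summed over their early-full regions these genes followed the set. The 25 regions of Neat1 had 41, 29 and 240 at 30, 180 and 680 s in the 1 mW, 1x series, 288, 196 and 452 in the 1 mW, 4.2x series, 335, 340 and 589 in the 2.6 mW, 1x series, and 715, 667 and 715 in the chosen series. Those of Col1a1 had 28, 25 and 244, then 285, 204 and 479, then 397, 371 and 626, then 779, 698 and 779. In both genes the 30 s sum was far below that at 680 s in the weakest series and above the 180 s sum in the 1 mW, 4.2x series.

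Most genes with several regions held both kinds. Of 349 genes with at least 5 regions of at least 10, all regions were early-full in 5, none in 4 and some in 340. The median share was 50%, against 45.4% of all regions of at least 10. How many genes would be mixed at that share alone was not tested. The 5 were Ctnna1, the adherens junction protein alpha-catenin (7 of 7), and, with 5 of 5 each, Dynll2, a dynein light chain, Mbnl3, a splicing regulator, Polr2m, an RNA polymerase II subunit, and Ythdf1, a reader of methylated mRNA. Lamc1, a laminin chain, had 7 of 8. Summed over the 7 regions, Ctnna1 had 113, 75 and 163 at 30, 180 and 680 s in the 1 mW, 4.2x series and 169, 143 and 207 in the 2.6 mW, 1x series. Dynll2 had 59, 37 and 90, and 115, 96 and 108, so only Dynll2 of these 2 was above its 680 s sum at 30 s in the latter series. Mbnl3, with 81, 97 and 220 there, was not close to it.

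The genes with no early-full region were Psat1, an enzyme of serine synthesis (0 of 7), the transcription factor Cebpb, Sh3d19 and Strap (0 of 5 each). Gas1, a hedgehog co-receptor, had 1 of 13 and Fstl1, a secreted glycoprotein, 1 of 10. Over all their regions of at least 10 these genes had, at 30 and 680 s in the chosen series, 223 and 346 (Psat1), 331 and 435 (Cebpb), 35 and 134 (Sh3d19), 116 and 177 (Strap), 186 and 418 (Gas1) and 163 and 345 (Fstl1). Sh3d19 was also low in the 2.6 mW, 1x series, at 14 and 115, while Strap was at 88 and 145. As the share of the 680 s sum present at 30 s, Strap had 60.7% and Cebpb 53.1% in the 2.6 mW, 1x series. Fstl1 had 41.4%, Psat1 37.3%, Gas1 26.7% and Sh3d19 12.2% there. Lamc1 (51.8%), Ythdf1 (47.0%) and Mbnl3 (36.8%) were lower than Strap and Cebpb in that series. Dynll2 (106%), Ctnna1 (81.6%) and Polr2m (76.3%) were higher. In the 1 mW, 4.2x series Cebpb (49.6%) was below Lamc1, Ythdf1, Mbnl3, Dynll2, Ctnna1 and Polr2m. Fstl1 (47.7%), Psat1 (37.2%), Sh3d19 (22.7%) and Gas1 (13.5%) were lower still. Strap (67.9%) was above Mbnl3 (59.2%) but below Lamc1 (78.5%) in that series. The order of genes therefore differed between series.

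Along genes, early-full regions lay slightly nearer to the annotated end. The RefSeq tables gave a strand for 2489 of the 3157 early-full regions with a gene. Their median distance to the gene end was 1423 nt, against 1733 nt for the other regions of at least 10, and 69.9% lay within 3000 nt of it, against 62.7%. Within 300 nt of the gene start the shares were 2.37% and 4.13%. Early-full regions were 48.5% of the 941 regions less than 300 nt from an end and 38.1% of the 975 regions 10000 nt or more from it, and 32.4% of the 182 regions less than 300 nt from a start. These are descriptions over regions, several of which share a gene, and the tables used here do not mark exons or untranslated regions.

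**Figure D5:**
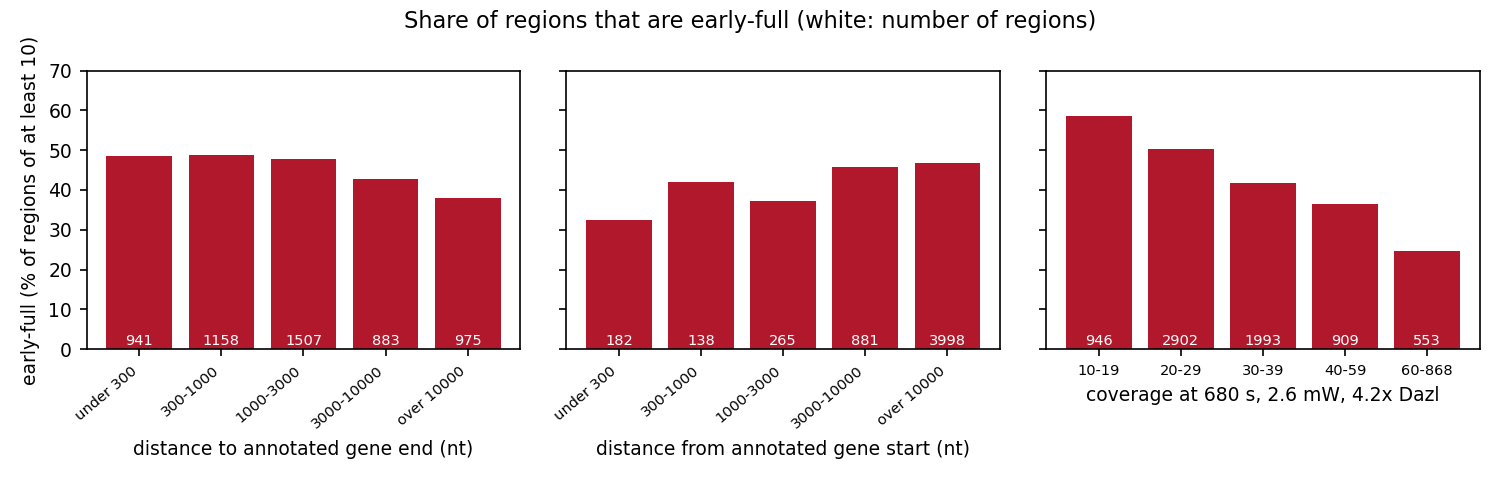
Percentage of regions of at least 10 that are early-full, by distance to the annotated gene end, by distance from the annotated gene start, and by the region's 680 s coverage in the chosen series, with the number of regions in each bar. The share is 48.5% nearest the gene end and 38.1% farthest from it, 32.4% nearest the start, and falls from 58.7% at a coverage of 10 to 19 to 24.8% at 60 and above.

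Neighbours and chromosomes added little. Of 1775 early-full regions with another region of at least 10 within 100 nt, the nearest was early-full in 48.7%, and of 1939 other regions with such a neighbour it was in 47.1%. Among chromosomes with more than 1 region, the share of early-full regions ran from 40.5% on chromosome 10 to 51.7% on chromosome 17.

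The share of early-full regions in the gene groups, marker and germ cell lists aside, ran from 31.0% to 53.2%, around the 45.4% of all regions of at least 10. The ubiquitin and proteasome genes had 25 of 47 regions of at least 10 (53.2%), among them 5 of 7 in Skp1, the adaptor of SCF ligases, and 4 of 8 in Rbx1, their RING subunit. Chromatin regulators had 26 of 49 (53.1%), with 4 of 5 in Suz12, a Polycomb subunit, and 3 of 4 in Ctcf, the insulator protein. Cytoplasmic RNA-binding regulators had 37 of 71 (52.1%), led by Celf1 with 6 of 14, and Dazap1, a partner of Dazl, had 4 of 5. Cell cycle regulators had 9 of 29 (31.0%), the lowest of these groups, although the kinase inhibitor Cdkn1b had 3 of 3. No germ cell gene of the list had a region of at least 10.

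The RNA-processing groups lay between. The hnRNP proteins had 40 of 80 regions (50%), with 7 of 12 in Hnrnpk. Summed over these 7, Hnrnpk had 130, 91 and 198 at 30, 180 and 680 s in the 1 mW, 4.2x series and 159, 143 and 279 in the 2.6 mW, 1x series. The splicing factors had 31 of 66 (47.0%), with 5 of 13 in Srsf1 and 5 of 10 in Srsf6, and decay and polyadenylation factors had 14 of 33 (42.4%), with 4 of 6 in the Ccr4-Not nuclease Cnot6. Srsf1 had 44, 37 and 120, then 97, 94 and 167 in the same 2 series, and so was less full at 30 s than Hnrnpk in the first of them.

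In translation, ribosomal protein genes had 25 of 56 regions (44.6%), led by Rps3 with 6 of 11, and translation factors had 20 of 43 (46.5%). The helicase Eif4a1, with 2 of 5, had 2, 2 and 41 in the 1 mW, 4.2x series over those 2 regions, while the elongation factor Eef2, also with 2 of 5, had 59, 32 and 76. At 30 s in that series these were the emptiest and the fullest, as a share of 680 s, of the 4 translation factor genes with most early-full regions. Matrix genes had 106 of 221 (48.0%), adhesion genes and surface receptors 58 of 128 (45.3%), actin cytoskeleton genes 60 of 135 (44.4%), immediate early and stress genes 11 of 25 (44%), chaperones 49 of 113 (43.4%), vesicle traffic genes 44 of 103 (42.7%) and noncoding RNAs 49 of 115 (42.6%).

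Fullness in the series not used by the rule also varied between groups, which was not tested. The median 30 s share in the 1 mW, 4.2x series over early-full regions ran from 40.7% in the 9 regions of cell cycle regulators and 50% in the 31 of splicing factors to 76.0% in the 26 of chromatin regulators, against 65% over the early-full set. In the 2.6 mW, 1x series it ran from 42.1% in cytoplasmic RNA-binding regulators to 69.4% in chromatin regulators, against 60%. Its range in the 1 mW, 1x series was from 10% in noncoding RNAs to 23.5% in stress genes, against 16.7%. On scaled coverage between 0 and 4 early-full regions of any group rose from 30 to 680 s and between 0 and 4 fell. The largest counts were 4 higher among the 106 regions of matrix genes, against 13.7% of all regions and 0.934% of the early-full set, and 4 lower among the 60 of actin cytoskeleton genes, against 1.58% and 3.32%. In the groups the median change ran from -0.32 in stress genes to 0.21 in cell cycle regulators, against -0.14 over the early-full set and 0.05 over all regions.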

How the data were processed

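The deposited values are a score, named normalized coverage by the authors, listed as whole numbers per interval with no strand and no header. FastQC, Bowtie2 and the mm10 build are named, per the submitters' processing notes, with no role or version. The sources used here do not say how coverage was normalized or sites were selected, so depth in reads is unknown and no counting interval is given. Intervals of the 12 files at most 10 nt apart were joined, and a region's coverage is the sum of width times value. Members and gene lists were chosen with earlier results of these data known.

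Regions were assigned to genes by RefSeq span (GRCm38.p6). The 9 libraries outside the 2.6 mW, 4.2x series were fitted on log2(coverage + 3) with limma (version 3.58.1, run in R 4.3.3), with time and series as additive terms (4 residual degrees of freedom, trend and robust eBayes) and Benjamini-Hochberg adjustment over 8338 regions, as deposited and scaled to equal totals. The fit was tested on simulated data. Its spread rests mostly on the prior (median 107 and 242 degrees of freedom). Each p-value takes libraries as independent, although deposited values may be linked between them, and may be too small. It tests an effect of time or series against the departure from additive effects of both, since there are no replicates. A Dazl or laser effect that differs between times is part of that departure.

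Named genes and regions were the 10 genes with most members, the 8 highest members, the 6 genes of at least 5 regions with the highest and the lowest member share, the 8 members with the largest called scaled change in each direction, the 6 members with the highest and the lowest mean share at 30 s, and up to 4 genes of each list. Regions with sequence were picked after their letters and values were seen.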

Additional observations from a re-analysis of the deposited data

Results flagged for a closer look

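Each condition has 1 library, so none was checked for an outlying library. Of 36 regions, those named as highest, by their scaled change or by their mean share at 30 s and the 4 with sequence whose values are given, 10 changed in opposite directions from 30 to 680 s in different series. Each difference is between single libraries and was not tested, and the smallest are within 1 or 2 units of whole-number coverage.

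The region of Hnrnpu had a 680 s minus 30 s difference in coverage of -1 in the 1 mW, 1x series, 10 in the 1 mW, 4.2x series and -26 in the 2.6 mW, 1x series. In the same order of series, Mtmr6 had -2, 6 and -11, Arhgap29 had 3, -2 and -13, and Sap130 had -2, -5 and 2. Blcap had -2, 2 and -5, Ccdc157 had -1, 1 and -5, and Slit2 had -6, 3 and 0. Dad1 had 13, -5 and -24, Stk11 had 19, 16 and -7, and Smarcal1 had 6, -3 and 23.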

How the results depend on the processing

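No paired analysis was possible because each condition has 1 library and the labels carry no replicate numbers. The number of early-full regions was 3592 and 2430 with intervals joined at 0 and 50 nt, 3392 and 2763 with a minimum of 5 and 20, and 3389 with 30 s within 5% of 680 s. Counts of early-full regions called from 30 to 680 s went from 1990 to 276 with a slope on log2 time and to 375 without the 3 libraries of 1 mW and 1x Dazl, an alternative chosen after seeing the data. The scaled count of 141 became 316 without those libraries. Testing only regions above the lowest value in at least 5 of 9 libraries gave 55 for time, 42 for Dazl level and 103 for laser power on scaled coverage, and a pseudocount of 10 gave 224 for laser power. The cause was not tested. Leaving out 1 library at a time gave, as deposited, 817 to 2153 for time, 1834 to 2899 for Dazl level and 2755 to 3102 for laser power. Scaled, it gave 45 to 280 for time, 5 to 1114 for Dazl level and 10 to 1278 for laser power. The 16 regions named by their scaled change kept its direction under every alternative run, and in 13 of 255 refits they missed the threshold. Coverage at the lowest listed value limits the 1 mW, 1x series.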
